A study of Mus musculus with 6 samples.

Results

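The suppressors of cytokine signalling, SOCS1 to SOCS7 and CIS (gene Cish), were followed here in RAW264.7 cells, a mouse macrophage-like line transformed by Abelson murine leukaemia virus. The 8 genes were taken by symbol from a table of 25124 genes, and all 8 are listed there. The cells had received a plasmid encoding Cas9 with no guide RNA sequence and served as the control line for an E4BP4 knockout, so both groups share that treatment, and whether the line is 1 clone is not stated. Cells were kept in medium with 25 mM glucose and 10% serum, and either received no IL-4 (M0, 3 libraries) or were polarized with 10 ng/ml IL-4 (M2, 3 libraries). The time with IL-4 is not given in the labels.

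SOCS proteins are induced by cytokines and act back on the receptors that induced them. Each has an SH2 domain, which binds phosphotyrosine on a receptor, kinase or adaptor, and a SOCS box, which recruits elongins B and C and cullin 5 to form a ubiquitin ligase. SOCS1 and SOCS3 also carry a short kinase inhibitory region that blocks Janus kinases (JAKs) directly, with JAK3 known as an exception. Cish and the genes of SOCS1 to SOCS3 are known as targets of STAT factors, the transcription factors that JAKs activate. SOCS4 to SOCS7 are known more for receptor tyrosine kinase and insulin pathways. In macrophages, SOCS1 is known as a brake on interferon and IL-4 signalling and SOCS3 as a brake on signalling through gp130.

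Reads recovered from the transcript-per-million (TPM) values came to 15615639 to 19511192 per library. Nothing in the labels says that the 3 replicates of a group were separate cultures, so the p-values rest on the spread between the samples deposited, which may be technical. The labels mark the 3 M0 libraries but not the M2 ones as re-analysed, so anything behind that mark cannot be told apart from IL-4. The macrophage label was checked on 12 markers, all of which passed 1 TPM, with a summed level of 4360 to 4745 TPM in M0 and 3945 to 4124 TPM in M2. The 5 B cell markers summed to at most 0.327 TPM, the 8 fibroblast and epithelial markers to at most 0.374 TPM, the 6 T cell markers to at most 2.71 TPM and the 6 neutrophil markers to at most 5.98 TPM in any library, with Cd3g, Cd8a and Krt8 at 0 throughout. Among these, the T cell marker Lck and the neutrophil marker S100a8 did reach 1 TPM in at least 3 libraries. Libraries differed in a trend with gene length, which was largest in size for M2 replicate 3. Its deviation from the other M2 libraries correlated with transcript length at a Spearman rho of -0.61 across 11202 genes, which are not independent replicates. The values were 0.33 and 0.56 for M2 replicates 1 and 2 and -0.42 to 0.44 for the M0 libraries. Each library was set against the mean of the other 2 of its group, so the values within a group depend on each other.

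The promoters of the 3 members that rose are shown first, because these genes are known to respond to STAT or interferon-regulatory factors. They are RefSeq sequences on GRCm38.p6, the assembly behind mm10, and 4 of the 8 members (Socs1, Socs3, Socs4 and Cish) have an entry in the RefSeq table used. Each run holds the 250 bases before the transcription start, 5′ to 3′ on the strand of the gene. Capitals mark matches on either strand to TTCNNNGAA, the palindrome bound by most STAT dimers, to the same half-sites with 4 free bases between TTC and GAA, the spacing that STAT6 is known to prefer, or to GAAA, 2 free bases and GAAA, the repeat found in interferon-response elements. The last motif was added after these sequences had been seen. The Socs1 window is chr16:10785537-10785786, minus strand, that of Socs3 is chr11:117969367-117969616, minus strand, and that of Cish is chr9:107296409-107296658, plus strand.
Socs1: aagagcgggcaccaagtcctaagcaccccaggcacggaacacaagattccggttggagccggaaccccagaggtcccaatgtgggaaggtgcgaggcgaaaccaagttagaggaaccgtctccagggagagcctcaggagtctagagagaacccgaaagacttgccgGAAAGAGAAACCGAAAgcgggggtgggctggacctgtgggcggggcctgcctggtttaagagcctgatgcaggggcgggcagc
Socs3: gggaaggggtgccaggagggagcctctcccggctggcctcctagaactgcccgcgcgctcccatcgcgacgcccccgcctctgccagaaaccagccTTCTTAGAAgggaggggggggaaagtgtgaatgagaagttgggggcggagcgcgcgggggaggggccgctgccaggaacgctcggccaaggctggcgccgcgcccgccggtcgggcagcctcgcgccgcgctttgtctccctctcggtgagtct
Cish: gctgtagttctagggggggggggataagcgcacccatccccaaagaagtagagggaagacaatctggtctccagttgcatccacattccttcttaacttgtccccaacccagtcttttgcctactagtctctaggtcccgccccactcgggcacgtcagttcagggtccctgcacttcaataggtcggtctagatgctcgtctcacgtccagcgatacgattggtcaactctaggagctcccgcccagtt

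The 3 promoters differed in their matches, and the 250 bases before the start of Socs4, which did not rise, held none. The Socs1 run has 2 GAAA repeat matches that overlap each other, from -83 to -74 and from -77 to -68 relative to the start, and no match to either TTC motif. The Socs3 run has 1 TTCNNNGAA match, from -154 to -146. In Cish no match lies before the start, and a pair of TTCNNNGAA matches begins at the start itself, at positions 1 to 9 and 12 to 20. Those first 20 transcribed bases of Cish, chr9:107296659-107296678 on the plus strand, are shown with the matches in capitals.
Cish start: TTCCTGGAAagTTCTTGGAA
The authors' comparison table uses a Cish model that begins at 107296689, and under that model both matches lie before the start. Of 32851 promoters in the RefSeq table, 7.02% hold TTCNNNGAA, 5.85% hold the motif with 4 free bases and 2.98% hold the GAAA repeat in the 250 bases before the start, and 8.30% hold TTCNNNGAA when the 50 bases after the start are included. A match is a stretch of letters and not a measured binding site.

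IL-4-treated cells differed from untreated cells mainly in 2 members of the family, Socs1 and Cish. Socs1 was 42.8-fold and Cish 7.59-fold higher in M2 by the ratio of mean TPM. Socs3 was 1.36-fold higher and Socs7 1.23-fold lower, both close to the threshold of the test. Socs4, Socs5 and Socs6 did not pass, and Socs2 lay below the filter on low values. In bulk RNA, a change in the number of cells that express a gene and a change per cell cannot be told apart.

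The test was limma on log2(TPM + 1) over all 11202 genes with at least 1 TPM in at least 3 libraries, and 7 of the 8 members passed that filter. Cish passed it only through the M2 libraries, so it had to differ. Socs1 reached 1 TPM in M0 replicates 2 and 3 but not in M0 replicate 1, so its place in the fit also depended on M2. Of the 7 tested members 3 rose (Socs1, Cish and Socs3), 1 fell (Socs7) and 3 did not pass at an adjusted p under 0.05. Over all genes tested, 20.1% rose, 23.7% fell and 43.7% changed in either direction, so a count of 4 calls among 7 members is near the background and is not itself a result about the family. Groups did not overlap for 5 of the 7 tested members, 3 of them with M2 higher and 2 with M2 lower, where 55.9% of all tested genes have groups that do not overlap (25.1% with M2 higher and 30.8% with M2 lower).

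**Figure D1:**
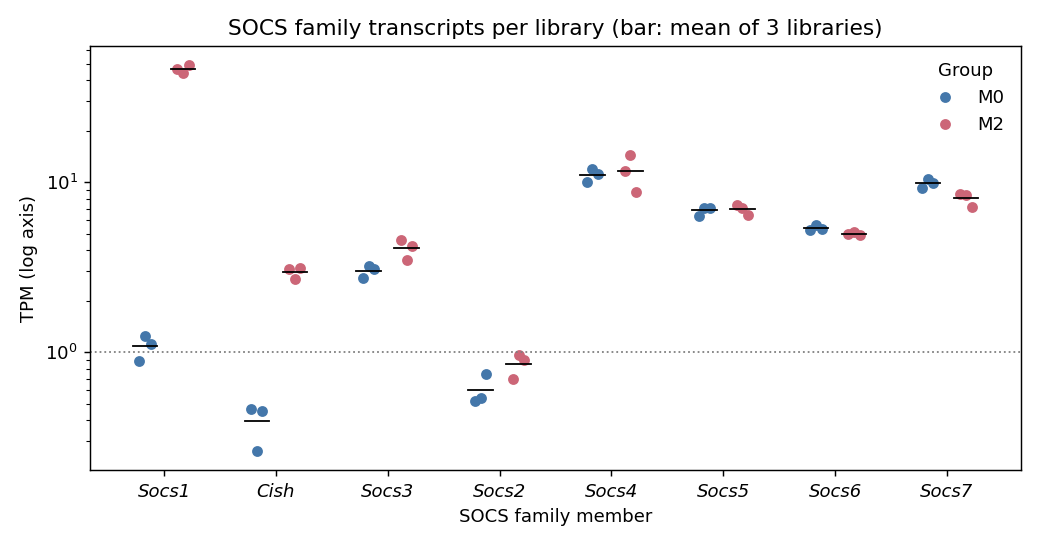
TPM of each SOCS family member on a log axis, 1 point per library (blue M0, red M2), with a bar at the mean of 3 libraries and a dotted line at 1 TPM. Socs1 lies near 1 TPM in M0 and between 44.0 and 48.9 TPM in M2, Cish is apart in the same direction, and the groups overlap for Socs2, Socs4 and Socs5.

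Socs1, the family's most potent inhibitor of JAK kinase activity, was measured on NM_009896 (mm10 chromosome 16, 10783809 to 10785536, minus strand, 1215 bases). Its level was 0.889, 1.25 and 1.12 TPM in M0 replicates 1 to 3 and 46.3, 44.0 and 48.9 TPM in M2 replicates 1 to 3. Behind these values stand 17, 23 and 18 reads in M0 and 873, 805 and 1034 reads in M2. The M0 libraries are all low and the M2 libraries all high, with a gap between the groups that is far wider than the spread within either. Its difference on log2(TPM + 1) was the first of all 11202 genes tested, its place by limma-voom was 3, and by the ratio of mean TPM 1 gene with a level above 0 in M0 stood higher (Arg1, 87.9-fold). Among tested genes, 1.18% had a lower mean than Socs1 in M0 and 78.4% in M2, so a transcript near the detection filter became one above most of the expressed genes. No other GENCODE gene shares exon bases with the Socs1 model.

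On log2(TPM + 1) the Socs1 difference was 4.51 (SE 0.092, limma adjusted p = 4.29e-08), higher in 3 of 3 M2 libraries. The scale shrinks the change of a gene that starts near 1 TPM. With limma-voom on the recovered reads the difference was 5.43, in the authors' deposited table it is 5.47, and on the authors' log2-scale values per library it was 2.84. Over the 14 alternatives the adjusted p ran up to 1.85e-05, in the limma fit without a filter, which does not select genes by their M2 level.

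Cish, which encodes CIS, the family's founding member and a brake on receptors that signal through STAT5, was measured on NM_009895 (chromosome 9, 107296659 to 107302784, plus strand, 3009 bases). Its level was 0.464, 0.263 and 0.452 TPM in the M0 libraries and 3.09, 2.71 and 3.15 TPM in the M2 libraries, from 22, 12 and 18 reads and from 144, 123 and 165 reads. All M2 libraries lie above all M0 libraries, and even in M2 the gene stays low, with 13.5% of tested genes below it. The difference on log2(TPM + 1) was 1.52. In the limma fit without a filter, which does not select genes by their M2 level, the adjusted p was 2.45e-04. In the filtered fit, which Cish entered only through M2, it was 2.00e-05 (SE 0.11). With limma-voom the difference was 2.97, and the authors' deposited table also gives 2.97. An antisense gene, Gm17041, and a pseudogene, Gm17040, lie on the opposite strand. They cover 8.28% and 4.51% of the 5786 bases in all GENCODE exons of Cish within that span. The share of the 3009-base model that they cover was not computed. Without a stated strand setting, reads from Gm17041 and Gm17040 cannot be told apart from Cish.

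Socs2, known as the brake on growth hormone signalling, was the least abundant member in M2. Its level was 0.516, 0.536 and 0.749 TPM in M0 and 0.698, 0.959 and 0.907 TPM in M2, from 18, 18 and 22 reads and from 24, 32 and 35 reads. M0 replicate 3 lies above M2 replicate 1, so the groups overlap. With no library at 1 TPM it had no place in the main fit. Without the filter its difference was 0.21 and did not pass (limma adjusted p = 0.146), and the authors' deposited table gives a log2 fold change of 0.56 with an adjusted p of 0.267.

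Socs3, which binds gp130 and the JAKs attached to it, was measured on chromosome 11, 117966087 to 117969366, minus strand. It stood at 2.76, 3.23 and 3.08 TPM in M0 and at 4.60, 3.49 and 4.21 TPM in M2, on 111 to 199 reads per library. All M2 libraries were above all M0 libraries, though M2 replicate 2 exceeded M0 replicate 2 by little. The difference on log2(TPM + 1) was 0.34 (SE 0.11, limma adjusted p = 0.0351), and the authors' deposited table gives 0.48 with an adjusted p of 0.0192. The call did not hold without any 1 of M0 replicates 1, 2 or 3 or M2 replicate 1, where the adjusted p lay between 0.0625 and 0.117, nor when the filter on low values was dropped (adjusted p = 0.0978). It held without M2 replicate 3 (adjusted p = 0.0474).

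Relative to each other, Socs1 and Socs3 exchanged places. The ratio of Socs1 to Socs3 TPM was 0.323, 0.387 and 0.363 in the M0 libraries and 10.1, 12.6 and 11.6 in the M2 libraries. The groups are far apart, and an exact two-sided permutation test over the 6 samples gave p = 0.1, the smallest that 3 against 3 allows.

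Socs7, a member linked to insulin receptor substrates and adaptor proteins, was the only member that fell. It was measured on chromosome 11, 97362292 to 97398542, plus strand, with a model of 7262 bases, the longest of the 8. Its level was 9.26, 10.4 and 9.95 TPM in M0 and 8.53, 8.46 and 7.17 TPM in M2, on 906 to 1149 reads per library. M2 lay below M0 in every library, with M2 replicate 3 the lowest. The difference was -0.27 (SE 0.092, limma adjusted p = 0.0416), and -0.20 without M2 replicate 3 (adjusted p = 0.0495). The adjusted p lay between 0.0522 and 0.151 without any 1 of the other 5 libraries, and was 0.0863 without the filter. In the authors' deposited table the log2 fold change is -0.25 with an adjusted p of 0.0167.

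Socs4, known as a brake on epidermal growth factor receptor signalling, was the most abundant member in M0. It stood at 10.1, 11.97 and 11.3 TPM in M0 and at 11.7, 14.6 and 8.74 TPM in M2. The M2 libraries spread on both sides of the M0 libraries, with M2 replicate 2 the highest and M2 replicate 3 the lowest of all 6. The difference was 0.04 with a 95% interval of -0.31 to 0.39 (limma adjusted p = 0.851), and 0.22 without M2 replicate 3 (adjusted p = 0.109).

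Socs5, which is known to act on epidermal growth factor receptor and IL-4 receptor signalling in other cells, stood at 6.36, 7.08 and 7.08 TPM in M0 and at 7.34, 7.05 and 6.41 TPM in M2. The groups overlap almost fully, and the difference was 0.02 with a 95% interval of -0.18 to 0.22 (limma adjusted p = 0.893).

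Socs6, a regulator of KIT and insulin receptor signalling, stood at 5.24, 5.63 and 5.30 TPM in M0 and at 4.96, 5.11 and 4.90 TPM in M2. Every M2 library lay below every M0 library by a small margin, but the difference of -0.09 did not pass (95% interval -0.28 to 0.09, limma adjusted p = 0.386). Changes of 1 log2 unit lie outside the intervals of Socs4, Socs5 and Socs6.

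**Figure D2:**
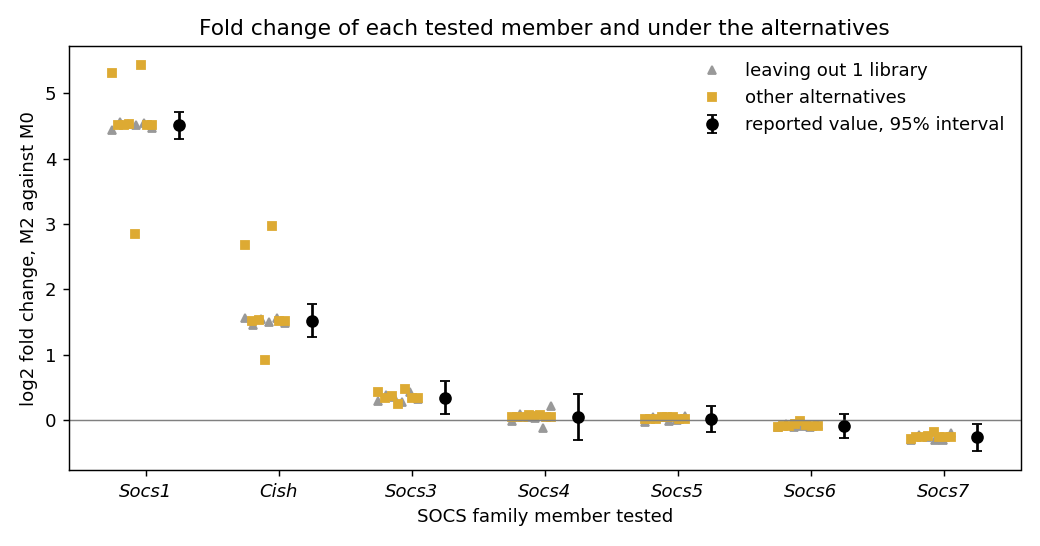
Log2 fold change of M2 against M0 for the 7 tested members: black points are the reported values with 95% intervals, grey triangles the fits that leave out 1 library, and yellow squares the other alternatives. Socs1 and Cish stay above 0 in every fit while their size moves with the scale of the values. Socs4 and Socs5 lie on both sides of 0, and Socs6 lies slightly below 0 in every fit.

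The order of levels within the family, which TPM allows because it is scaled for length, differed between the groups. In M0 the order was Socs4 (11.1 ± 0.942 TPM), Socs7 (9.88 ± 0.596), Socs5 (6.84 ± 0.413), Socs6 (5.39 ± 0.213), Socs3 (3.02 ± 0.241), Socs1 (1.09 ± 0.182), Socs2 (0.600 ± 0.129) and Cish (0.393 ± 0.113 TPM; SD, n = 3 for each). Only Socs4 and Socs7 overlapped there among neighbours in the order. In M2 Socs1 came first (46.4 ± 2.46 TPM), ahead of Socs4 (11.7 ± 2.92), Socs7 (8.05 ± 0.763), Socs5 (6.93 ± 0.475), Socs6 (4.99 ± 0.108), Socs3 (4.10 ± 0.562), Cish (2.98 ± 0.236) and Socs2 (0.855 ± 0.138 TPM; SD, n = 3 for each). Only Socs7 and Socs5 overlapped among neighbours in that order.

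Summed over the 8 members, the family held 35.6, 40.4 and 39.0 TPM in the M0 libraries and 87.2, 86.4 and 84.4 TPM in the M2 libraries. The groups do not overlap, and the M2 mean was 2.24 times that of M0 (exact two-sided permutation p = 0.1, the smallest possible here). Without Socs1 the sum was 34.7, 39.1 and 37.9 TPM in M0 and 40.9, 42.4 and 35.5 TPM in M2, where the groups overlap (exact permutation p = 0.4). Socs1 made up 2.50% to 3.09% of the family's TPM in the M0 libraries and 51.0% to 58.0% in the M2 libraries. The share of Cish was 1.04% ± 0.343 in M0 and 3.47% ± 0.301 in M2 (SD, n = 3 each). Socs4 and Socs7 together with Socs5 and Socs6 held most of the total in M0, and the share of Socs4 went from 29.0% ± 0.622 in M0 to 13.5% ± 3.27 in M2 and that of Socs7 from 25.8% ± 0.252 to 9.36% ± 0.744 (SD, n = 3 each). A share falls when another member rises, so it is no measure of a member's own change.

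**Figure D3:**
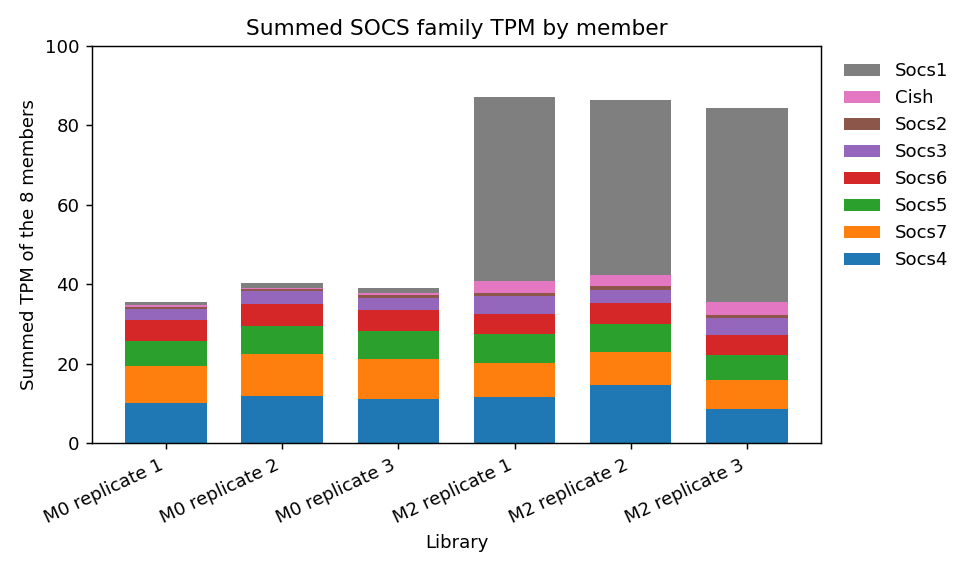
Summed TPM of the 8 SOCS family members in each of the 6 libraries, stacked by member. The 3 M2 bars reach 84.4 to 87.2 TPM against 35.6 to 40.4 TPM in M0, and most of the added height is the grey Socs1 segment.

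The JAK genes went different ways. Of the 4 JAK genes tested 1 rose (Jak2) and 2 fell (Jak3 and Tyk2), with a median log2 fold change of -0.34 against -0.03 over all genes tested. These 3 calls are 75.0% of the 4, beside 43.7% of all genes tested. Jak2, the kinase of growth hormone, GM-CSF and interferon-gamma receptors, stood at 10.7, 12.8 and 11.6 TPM in M0 and 33.9, 37.4 and 30.1 TPM in M2 (log2 fold change 1.45, limma adjusted p = 1.15e-05). Jak3, the partner of the common gamma chain, fell from 12.7 ± 0.280 to 7.59 ± 0.838 TPM and Tyk2 from 15.9 ± 1.12 to 10.5 ± 1.71 TPM (SD, n = 3 each; limma adjusted p = 4.62e-04 and 0.00421). Jak1, which serves both forms of the IL-4 receptor, did not pass (adjusted p = 0.277), at 37.8 ± 3.09 TPM without IL-4 and 34.8 ± 2.53 TPM with it.

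Set against its kinases, Socs1 transcript stood at 2.59, 3.10 and 2.89 TPM per 100 TPM of Jak1 in the M0 libraries and at 128, 121 and 153 in the M2 libraries. Per 100 TPM of Jak2, which itself rose, it was 8.31, 9.76 and 9.67 in M0 and 137, 118 and 163 in M2. In all M2 libraries Socs1 transcript exceeded that of either kinase, and in all M0 libraries it was far below both. These are ratios of transcripts, not of proteins.

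STAT genes were lower or did not pass. Of 5 tested 0 rose by limma (0 at an unadjusted p under 0.05 and 0 by limma-voom), and 4 fell: Stat2, Stat3, Stat5b and Stat6, with a median of -0.47 over the 5. These 4 calls are 80.0% of the 5, beside 43.7% of all genes tested (20.1% rose and 23.7% fell). Stat3, which transmits gp130 and IL-10 signals, fell from 19.9 ± 0.565 to 14.1 ± 1.31 TPM and Stat5b, a known inducer of Cish, from 11.2 ± 0.730 to 7.30 ± 0.811 TPM (SD, n = 3 each; limma adjusted p = 0.00180 and 0.00196). Stat2 fell by 0.61 on the log2 scale. Stat6, the main IL-4 factor, fell by 0.33, and that call did not hold without M0 replicate 1 (adjusted p = 0.0516) or M0 replicate 2 (0.0644). Stat5a was measured at 3.90 ± 0.662 TPM without IL-4 and at 3.66 ± 0.153 TPM with it, a difference that did not pass.

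Of the 21 tested receptor chains on which the family can act, 6 rose and 4 fell, with a median of -0.04. These 10 calls are 47.6% of the chains, near the 43.7% of all genes tested, so the count is no result about the receptors. Lifr, among the 6 that rose, passed the filter only through the M2 libraries (1.02 to 1.94 TPM, against 0.495 to 0.724 TPM in M0). Il4ra, the chain that binds IL-4, rose from 4.14 ± 0.227 to 8.09 ± 0.777 TPM (SD, n = 3 each; limma adjusted p = 2.31e-04), so that Socs1 stood at 22.9 to 29.2 TPM per 100 TPM of Il4ra in M0 and 503 to 676 in M2. Its partner chains fell: Il13ra1, of the type II receptor, from 18.4 to 10.5 TPM and Il2rg, the common gamma chain, from 24.6 to 18.7 TPM. The chains of the IL-10 and GM-CSF receptors split. Il10ra, of the IL-10 receptor, was 2.10-fold lower, and Csf2ra, of the GM-CSF receptor, 1.28-fold lower. Il10rb, also of the IL-10 receptor, rose 1.26-fold and Csf2rb, also of the GM-CSF receptor, 1.30-fold (limma adjusted p = 0.00233 and 0.00919). Csf2rb2 rose 1.32-fold (limma adjusted p = 0.00621). Ifngr2, of the interferon-gamma receptor that SOCS1 restrains, rose 1.27-fold. Of 5 tested adaptors and insulin receptor substrates 3 fell (Grb2, Shc1 and Gab2) and 0 rose by limma (0 at an unadjusted p under 0.05 and 0 by limma-voom). These 3 calls are 60.0% of the 5, beside 43.7% of all genes tested. Irs1, below the filter, stood at 0.014 to 0.05 TPM in M0 (2 to 7 reads) and 0.123 to 0.163 TPM in M2 (17 to 26 reads). In the fit without a filter Irs1 rose (limma adjusted p = 0.00779). The Gab2 call was lost on leaving out M0 replicate 2 (adjusted p = 0.0588) or M0 replicate 3 (0.0503).

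**Figure D4:**
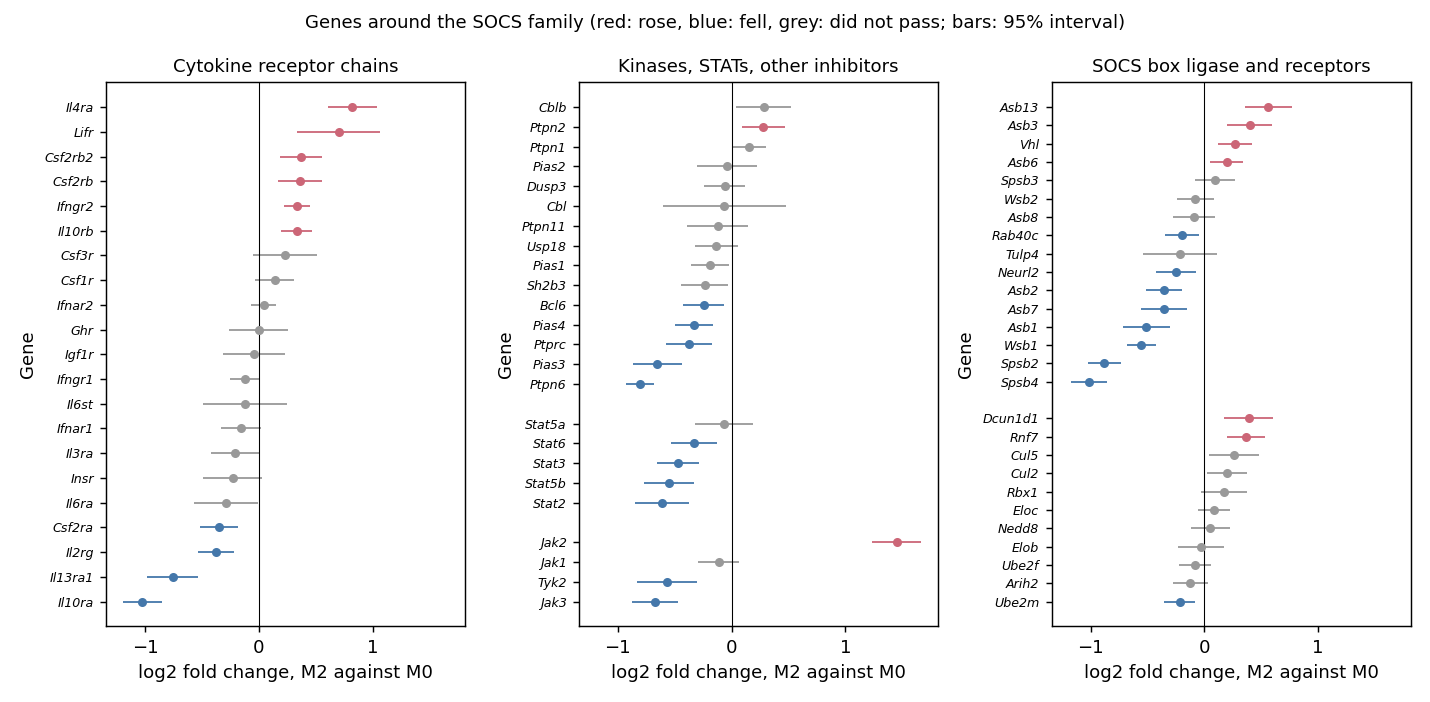
Log2 fold changes of M2 against M0 with 95% intervals for tested receptor chains (left), other inhibitors, STAT and JAK genes (middle), and other SOCS box receptors and ligase parts (right), coloured red where a gene rose, blue where it fell and grey where it did not pass. Jak2 lies alone at 1.45, the STAT genes shown lie at or below 0, and most of the ligase parts lie near 0.

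The machinery that the SOCS box recruits spanned mean levels in M0 from 10.2 TPM (Dcun1d1) to 254 TPM (Elob). Of 11 tested genes 2 rose and 1 fell by limma, with a median of 0.09, and 27.3% were called beside 43.7% of all genes tested. By limma-voom 4 rose and 0 fell. Elob, elongin B, was 254 ± 19.6 TPM in M0 and 249 ± 26.8 TPM in M2 (SD, n = 3 each), and did not pass (limma adjusted p = 0.806). Cul5, the scaffold of SOCS ligases, stood at 21.9 ± 1.27 and 26.6 ± 3.51 TPM (adjusted p = 0.0523), so that summed SOCS transcript was above that of Cul5 in both groups. All M2 libraries lay above all M0 libraries for Cul5, which did not pass in the main fit but passed in 6 of 14 alternatives. Rnf7, the RING partner of cullin 5, rose 1.29-fold and Dcun1d1, which helps to load NEDD8 on cullins, 1.35-fold. Ube2m, a NEDD8-conjugating enzyme that serves other cullins, was 1.16-fold lower, and this call did not hold with median-ratio scaling (adjusted p = 0.0912), on the authors' log2-scale values (0.0914), by limma-voom (0.0748) or without M0 replicate 1, M0 replicate 3, M2 replicate 1 or M2 replicate 2 (0.0526 to 0.0717).

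Other proteins with a SOCS box and other inhibitors of cytokine signalling did not share the rise of Socs1. Of 16 tested SOCS box genes outside the family 4 rose (Asb13, Asb3, Vhl and Asb6) and 8 fell, with a median of -0.20. These 12 calls are 75.0% of the 16, beside 43.7% of all genes tested (20.1% rose and 23.7% fell). By limma-voom 4 rose and 6 fell, and over the alternatives 3 to 5 rose and 6 to 8 fell. Spsb1, below the filter, rose in the fit without a filter (limma adjusted p = 0.0178). Spsb4 and Spsb2, whose products have a SPRY domain in place of SH2, were 2.10-fold and 1.88-fold lower, Wsb1 was 1.48-fold lower, and Asb13 was 1.58-fold higher. Of 15 other inhibitors 1 rose and 5 fell by limma, with a median of -0.13, and 3 rose and 6 fell by limma-voom. The 6 calls of 15 by limma are a share near the 43.7% of all genes tested. Ptpn6, the phosphatase SHP-1, was 1.76-fold lower, Pias3 1.67-fold, Ptprc 1.29-fold, Pias4 1.27-fold and Bcl6 1.20-fold. Ptpn2, a phosphatase of JAK1 and STAT factors, was the 1 that rose by limma, 1.23-fold. The Ptpn2 call did not hold without M0 replicate 1, 2 or 3 (limma adjusted p of 0.0615 to 0.0797) or without the filter (0.0553). That of Bcl6 did not hold without M0 replicate 2, M0 replicate 3 or M2 replicate 1 (0.0541 to 0.129), without the filter (0.0578) or with the replicate block (0.0581). That of Asb6 held, among the fits without 1 library, only where M2 replicate 3 was left out (0.0873 to 0.108 in the other 5), and was lost with the block (0.0532).

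Genes known as targets of the STAT factors that these inhibitors restrain split in both directions. Of 13 tested STAT5-linked genes 4 rose and 6 fell (median -0.19). Calls made up 76.9% of this list and of the STAT3 list that follows, beside 43.7% of all genes tested (20.1% rose, 23.7% fell). The kinase gene Pim3 rose 3.59-fold while its relative Pim1 fell from 22.1 ± 0.388 to 8.24 ± 1.34 TPM (SD, n = 3 each). Myc and Id1 rose 4.64-fold and 4.72-fold, and Igf1 1.94-fold. Of 13 STAT3-linked genes 3 rose and 7 fell (median -0.47): Nfil3, Il4ra and Il10 rose, and Bcl2l1, an anti-apoptotic gene also on the STAT5 list, and Tnfrsf1a fell 1.74-fold and 1.51-fold. Pim1 and Mcl1, like Bcl2l1, are among the genes that fell on both lists, so the shares called are not independent.

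By the mean absolute difference of centred log2(TPM + 1) values over the 6 libraries, the genes nearest to Socs1 were Ccl7 (0.17), a monocyte-attracting chemokine, Arg1 (0.36), the arginase, and Slc7a2 (0.53), an arginine importer. The nearest to Cish were Mmp13 (0.06), a collagenase, Ccl2 (0.08), a chemokine, and Hbegf (0.08), an epidermal growth factor receptor ligand. This measure follows the size of the group difference first, and with 6 libraries it says little on finer likeness.

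Genes around the members on the chromosome were also read, as all genes of the table whose start lies within 200 kb of the member's start. Around Socs1 1 of 6 such genes was expressed enough to test, and it rose: Rmi2, which encodes a subunit of the BLM helicase complex, starts 49.5 kb away and stood at 1.99, 2.88 and 2.36 TPM in M0 and 7.68, 7.31 and 8.05 TPM in M2 (log2 fold change 1.35, limma adjusted p = 3.85e-05). The sperm protamine genes Prm1, Prm2 and Prm3, closer to Socs1, were at 0 in all libraries. Around Cish 2 of 6 could be tested, and both rose: Mapkapk3, a kinase gene that starts 7.26 kb away, was 19.7, 21.6 and 21.3 TPM in M0 and 34.5, 36.9 and 33.1 TPM in M2 (0.71, adjusted p = 8.25e-05), and Hemk1 rose 1.24-fold. The members that changed little also had neighbours that changed: Gch1, 87.7 kb from Socs4, was 2.16-fold lower, Tmc8, 187 kb from Socs3, 2.07-fold and Arhgap23, 87.9 kb from Socs7, 2.23-fold. Over all 8 members, the windows held 32 tested genes, of which 9 rose and 8 fell (53.1% called, beside 43.7% of all genes tested).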

How the data were processed

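Poly(A) RNA sequencing of 6 libraries was used, 3 M0 and 3 M2, grouped by sample titles. Per the submitters' processing notes the tools were bcl2fastq, STAR 2.7.5a, HOMER 4.11.1 and DESeq2 on mm10, without their roles, and no source used here gives the strand setting or the handling of multiply mapped reads. Per the file headers, the first deposited table holds TPM and, for each gene, a transcript model with its length, and the second the authors' comparison, with a log2 fold change, a p-value and its adjusted form. The second table's values per library were read as log2-scale normalized values by the authors from their range, since no transform is named.

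Multiplied by length, TPM came in whole steps of 1 read: of values whose rounding left the step visible, 100.0% were within 0.1 of a whole read. Recovered reads give the counts behind each value. Their precision covers counting error only.

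Genes with at least 1 TPM in at least 3 libraries were fitted by group with limma 3.58.1 (R 4.3.3) on log2(TPM + 1) with a variance trend and Benjamini-Hochberg adjustment over all of them. The fit was tested on simulated reads. As alternatives the fit was run with a pseudocount of 0.1, without a filter, with a filter at 5 TPM, median-ratio scaling, on the authors' log2-scale values, with limma-voom on recovered reads, no variance trend, a replicate block and leaving out each library. Python 3.11.15 and scipy 1.17.1 served for the rest.

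The members and lists were chosen with earlier results of these data known. Besides the members, the rule for named genes took all tested JAK and STAT genes, up to 4 called genes of lowest adjusted p per list, calls needed to complete a count of 5 or fewer, called neighbours with a log2 fold change of at least 0.5 in size, and the 3 genes nearest in profile to Socs1 and to Cish. Genes printed outside that rule were chosen after their values were seen. Some genes of these lists are not reported here and were left out of the list counts.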

Additional observations from a re-analysis of the deposited data

How the results depend on the processing

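Socs1 kept its direction and passed in 14 of 14 alternatives, and Socs4, Socs5 and Socs6 passed in 0 of 14. Socs1 met the filter at 1 TPM only with its M2 libraries counted, and the filter at 5 TPM through M2 alone. The limma fit without a filter has no such selection, and there the Socs1 difference was 4.51 (adjusted p = 1.85e-05). The rise of Socs3 and the fall of Socs7 rest on the settings. Without the filter the adjusted p by limma was 0.0978 for Socs3 (log2 fold change 0.34) and 0.0863 for Socs7 (-0.27). With the replicate number as a block it was 0.0595 for Socs3 (0.34) and 0.0573 for Socs7 (-0.27). Same-numbered M0 and M2 libraries correlated in their deviations at -0.03, 0.21 and 0.03. These values cannot decide whether the number pairs the samples, because the deviations also followed transcript length. The block left 4870 genes called against 4899, and not every library correlated best with its own number. Leaving out 1 library gave Socs3 0.27 to 0.43, Socs7 -0.31 to -0.20, 2 to 3 members that rose and 0 to 1 that fell, and 3556 to 5694 genes called. No member fell without the filter (0) or with the block (0), and the filter at 5 TPM, which leaves Cish and Socs3 untested, left 1 that rose. The summed family difference of 47.7 TPM was 2.33 TPM without Socs1. Summed over the pathway lists, counts stayed within 1.5 times under all alternatives, but small lists moved more. Over the alternatives, 2 to 4 ligase genes rose and 0 to 1 fell, 0 to 4 other inhibitors rose, and 0 to 1 adaptors or insulin receptor substrates rose (Irs1, without the filter). Rises made up 45.9% of calls in the main fit and 42.4% to 51.3% elsewhere, and the median of all genes moved from -0.03 to between -0.05 and 0.00. Cish entered the filtered fits through M2 alone, so its calls there show no stability. Depth limits Socs1, Socs2 and Cish in M0, where 12 to 23 reads stand behind each value. The cause of each lost call was not tested.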

Other observations

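The deposited tables do not use the same transcript models for all members. Socs6 has 5916 bases in the TPM table and 3205 in the comparison table, Cish 3009 and 2156, Socs7 7262 and 6996, and Socs1 1215 and 1336, while Socs2 and Socs5 have equal lengths and Socs3 and Socs4 differ by 1 base. A TPM level divides by that length, so the order of levels was read on the models of the TPM table. Whether levels or fold changes differ under the other models was not tested.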
